A study of Homo sapiens with 6 samples.

Results

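The annexins are a family of calcium-dependent phospholipid-binding proteins, and 8 of their genes were followed here: ANXA1, ANXA2, ANXA3, ANXA4, ANXA5, ANXA6, ANXA7 and ANXA11. They were taken by gene symbol, and each had exactly 1 row among the 62016 genes of each of 3 deposited tables. RNA was sequenced in Kasumi-1 cells, an established human line of leukemic myeloblasts in which RUNX1 is fused to RUNX1T1 (AML1-ETO). Cells were infected for 4 days with virus carrying JMJD1C shRNA63, JMJD1C shRNA95 or a control shRNA, with 2 libraries in each of these 3 groups, and the comparison asked what depletion of the KDM3-family protein JMJD1C does to RNA levels. Both hairpins were set against the same control libraries, and every group is this 1 line. The third table sets 1 library with an AML1-ETO shRNA against 1 control library, both from an earlier published series.

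Each annexin carries a conserved core that attaches to negatively charged phospholipids, above all phosphatidylserine, when calcium is bound, and a variable amino-terminal tail that gives each member its partners. Annexins organise membranes, help to reseal torn plasma membrane and take part in vesicle traffic. In the myeloid lineage annexin A1 is abundant in mature neutrophils and monocytes, where its secreted form limits inflammation through formyl peptide receptors, and annexin A3 is a protein of neutrophil granules. Annexin A5 is the protein used as a probe for phosphatidylserine on dying cells, and annexin A6 is the large member with a duplicated core.

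The promoter sequences below are shown because ANXA1, ANXA3 and ANXA5 were higher with both JMJD1C hairpins, while ANXA6 and ANXA7 were each lower with a single hairpin. They are the 250 bases before the annotated start, 5′ to 3′ on the gene's strand, from RefSeq in GRCh38.p14, in which all 8 annexins were found, ANXA4, ANXA6 and ANXA11 with several starts. The windows are chr9:73151615-73151864 on the plus strand for ANXA1, chr4:78551520-78551769 on the plus strand for ANXA3, chr4:121696981-121697230 on the minus strand for ANXA5, chr5:151157780-151158029 on the minus strand for ANXA6, at its most upstream start, and chr10:73414059-73414308 on the minus strand for ANXA7. Capitals mark matches on either strand to 4 motifs searched: TGTGGT for RUNX factors, GAGGAA for PU.1, TTGCNNAA for C/EBP factors and TATAAA for a TATA box.
ANXA1: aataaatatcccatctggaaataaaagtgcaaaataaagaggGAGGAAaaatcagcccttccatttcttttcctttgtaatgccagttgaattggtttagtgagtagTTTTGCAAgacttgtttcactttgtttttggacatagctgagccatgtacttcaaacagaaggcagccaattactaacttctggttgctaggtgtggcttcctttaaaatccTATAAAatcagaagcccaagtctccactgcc
ANXA3: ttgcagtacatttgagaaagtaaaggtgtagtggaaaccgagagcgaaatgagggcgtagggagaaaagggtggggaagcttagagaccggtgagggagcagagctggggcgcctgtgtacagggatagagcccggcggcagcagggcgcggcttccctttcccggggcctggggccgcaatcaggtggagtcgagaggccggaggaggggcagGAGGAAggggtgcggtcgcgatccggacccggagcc
ANXA5: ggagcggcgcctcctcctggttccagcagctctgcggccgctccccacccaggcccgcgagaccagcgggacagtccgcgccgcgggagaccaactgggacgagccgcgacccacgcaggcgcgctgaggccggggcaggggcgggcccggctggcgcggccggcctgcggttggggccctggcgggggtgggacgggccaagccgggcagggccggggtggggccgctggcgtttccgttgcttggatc
ANXA6: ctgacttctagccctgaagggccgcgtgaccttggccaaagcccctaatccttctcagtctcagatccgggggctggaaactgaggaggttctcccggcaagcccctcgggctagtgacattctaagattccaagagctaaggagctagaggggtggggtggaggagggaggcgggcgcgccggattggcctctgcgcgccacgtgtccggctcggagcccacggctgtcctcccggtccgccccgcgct
ANXA7: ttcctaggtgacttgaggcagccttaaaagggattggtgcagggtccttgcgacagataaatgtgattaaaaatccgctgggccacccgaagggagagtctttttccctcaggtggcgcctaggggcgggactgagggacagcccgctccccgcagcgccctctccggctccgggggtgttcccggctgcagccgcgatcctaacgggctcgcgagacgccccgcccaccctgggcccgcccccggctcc

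ANXA1 stood apart in base composition. Its window had 38.4% G and C and no CpG, against 64.0% and 18 CpG for ANXA3, 78.8% and 31 for ANXA5, 65.6% and 19 for ANXA6 and 66.0% and 20 for ANXA7. The median of 35116 promoter windows of this length was 58.0% and 11 CpG. The ANXA1 window held a TATA box 31 bases before the start, a C/EBP match at 143 and a PU.1 match at 208 bases, and ANXA3 held a PU.1 match at 36 bases. Neither held the RUNX letters, and the windows shown for ANXA5, ANXA6 and ANXA7 held none of the 4 motifs. Among the windows not shown, ANXA2 also held a TATA box at 31 bases, ANXA4 a PU.1 match at 91 bases of its downstream start, and ANXA11 RUNX matches at 216 bases of its most upstream start and 15 bases of its most downstream one. The most upstream ANXA11 start also held PU.1 matches at 113 and 223 bases and a TATA box at 61 bases. Of the 35116 windows, 3855 held the RUNX letters, 23.6% those of PU.1, 9.05% those of C/EBP and 10.7% the TATA box, and each match describes these letters only.

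In hg19, as the tables give it, ANXA1 lies at chr9:75766672-75785309, ANXA3 at chr4:79472672-79531597, ANXA5 at chr4:122589109-122618268 and ANXA6 at chr5:150480272-150537443, and no other gene of the tables overlaps these loci.

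Levels are in FPKM, fragments per kilobase of transcript scaled to sequencing depth, as 1 value per group in each deposited table. The authors had combined the 2 libraries, so the spread of a level between libraries is not given. The control FPKM are scaled separately in each table and are compared within a table only. A gene was called where the authors' q-value, their p adjusted over all tested genes, was under 0.05. The error beside a log2 fold change is its size divided by the authors' test statistic, and intervals are 95% intervals from that error.

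JMJD1C itself had 13.7 FPKM with shRNA63, against 30.4 FPKM in controls, and the authors' deposited table called it lower (q = 0.00214). The libraries labelled shRNA95 had 25.1 FPKM, against 29.4 FPKM in controls, and JMJD1C was not called there (log2 fold change -0.23, interval -0.81 to 0.35) in the authors' deposited table. That JMJD1C was depleted in the shRNA95 libraries therefore rests on their label. The myeloblast label was checked against 7 markers: KIT, CD34, CD33, ANPEP, ELANE and RUNX1T1 were present in all JMJD1C and control shRNA groups, and MPO was listed at 0 in each of them with the authors' status HIDATA, which means that no estimate was made. Of those 7, KIT was called lower and CD33 and ELANE higher with shRNA63, and CD34 and ANPEP higher with shRNA95, in the authors' deposited tables. In the AML1-ETO comparison CD34 was called lower (log2 fold change -2.15, error 0.53, q = 0.0311) in the authors' deposited table. Erythroid markers stayed at or under 0.0940 FPKM in every JMJD1C table, and 1 marker each of B cells, T cells and megakaryocytes was called lower with shRNA63 and none with shRNA95. Some markers of other lineages were measurable in these groups, with EPCAM of the epithelial list at 13.9 to 16.3 FPKM, CD79B of B cells at 6.87 to 10.5 FPKM and CD3D of T cells at 1.59 to 8.52 FPKM.

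In control cells ANXA6 had the highest annexin level. In the shRNA63 table the controls had 333.4 FPKM of ANXA6, 115.9 of ANXA2, 112.1 of ANXA11, 94.6 of ANXA7, 35.8 of ANXA5, 11.8 of ANXA4, 0.821 of ANXA3 and 0.465 of ANXA1. The order in the control column of the shRNA95 table was the same, from 323.1 FPKM for ANXA6 to 0.451 FPKM for ANXA1. ANXA6 made up 47.3% of the summed annexin FPKM of the controls in both tables, and ANXA1 and ANXA3 each made up under 0.117%. With no spread for a level, neighbours in the order as close as ANXA2 and ANXA11 cannot be ranked beyond error.

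**Figure D1:**
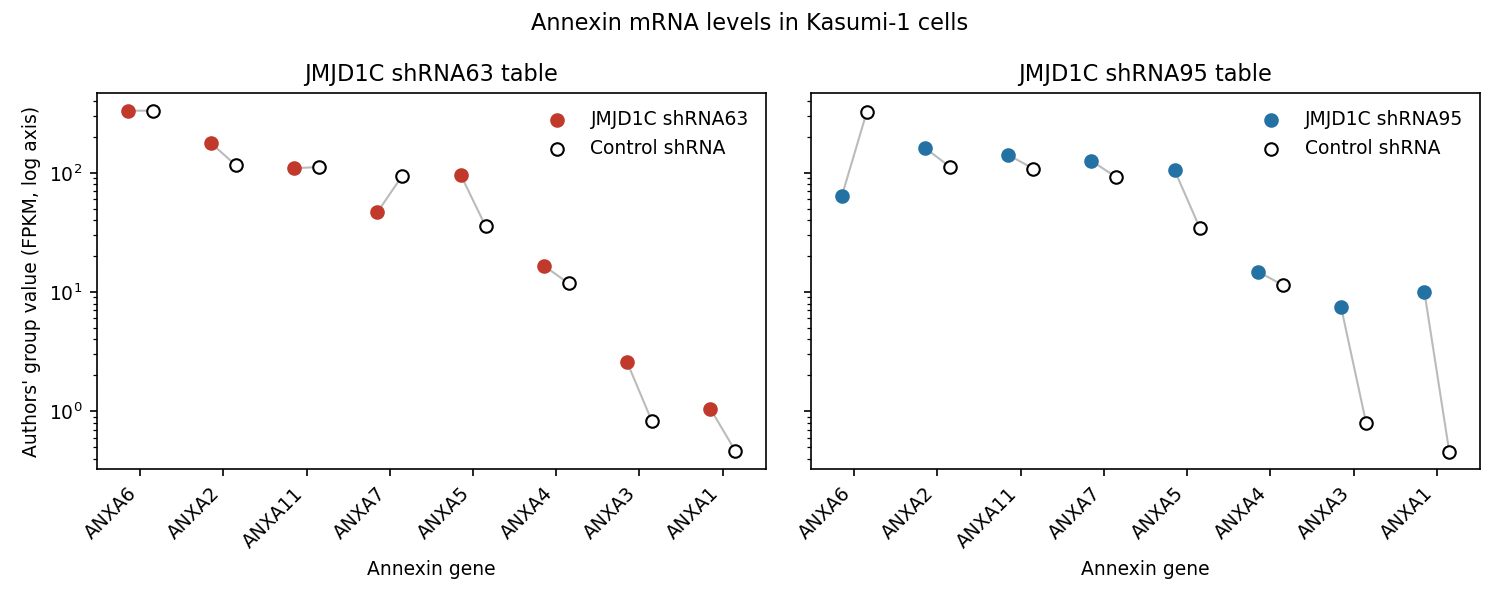
Annexin levels in FPKM on a log axis, as the authors' single value per group, for JMJD1C shRNA63 (left panel) and JMJD1C shRNA95 (right panel), each left of its control; grey lines join the groups of 1 gene. ANXA1, ANXA2, ANXA3, ANXA4 and ANXA5 lie above their controls in both panels, and of these ANXA1, ANXA3 and ANXA5 were called with both hairpins. ANXA7 lies below its control with shRNA63 only. ANXA6 lies far below its control with shRNA95, at 63.6 against 323.1 FPKM, and level with it with shRNA63, at 332.2 against 333.4 FPKM.

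With JMJD1C shRNA63, ANXA1, ANXA2, ANXA3 and ANXA5 rose and ANXA7 fell. That is 4 of 8 called higher and 1 of 8 called lower, beside 2.29% and 2.83% of the 18271 tested genes in these directions, or 5.12% in all. In the libraries labelled shRNA95, ANXA1, ANXA3 and ANXA5 rose and ANXA6 fell. This is 3 of 8 called higher and 1 of 8 called lower, beside 2.59% and 1.82% of 18006 tested genes, or 4.40% in all. The family was chosen with earlier results of these data known, so these counts are a description. All 8 were tested in each table, and ANXA1 and ANXA3 reached 1 FPKM only in the shRNA groups. The median log2 ratio of the 8 annexins, taken as log2 of FPKM + 1 over FPKM + 1, was 0.48 with shRNA63 and 0.49 with shRNA95, against 0.0087 and 0.032 over all measured genes. With shRNA63 it was 0.23 over the 6 annexins with at least 5 FPKM, which leaves out ANXA1 and ANXA3, and 0.26 over all 8 with a pseudocount of 5 FPKM. The hairpins share their controls, so the resemblance of their values is not independent evidence.

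ANXA5 rose by nearly the same amount with each hairpin. It had 96.9 FPKM with shRNA63, against 35.8 FPKM in controls, a log2 fold change of 1.44 (error 0.30, q = 0.00214) in the authors' deposited table. With shRNA95 it had 104.9 FPKM, against 34.7 FPKM in controls, a log2 fold change of 1.60 (error 0.31, q = 0.00216) in the authors' deposited table. In the order of levels ANXA5 stood above ANXA7 with shRNA63, where ANXA7 was lower than in controls, and above ANXA6 with shRNA95, where ANXA6 was lower than in controls. The difference between hairpins was -0.16 on the log2 scale, with an interval of -1.004 to 0.685.

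ANXA3 was a low gene that rose with both hairpins. It had 2.59 FPKM with shRNA63, against 0.821 FPKM in controls, a log2 fold change of 1.65 (error 0.44, q = 0.00214) in the authors' deposited table. It had 7.42 FPKM with shRNA95, against 0.796 FPKM in controls, a log2 fold change of 3.22 (error 0.42, q = 0.00216) in the authors' deposited table. The shRNA95 change was the larger, by 1.57 on the log2 scale, but the difference had an adjusted p of 0.369 over 13870 genes. With errors scaled to the deposited p-values that adjusted p was 0.00952.

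ANXA1 was the lowest annexin in controls and had the largest fold change of the family with shRNA95. It had 10.0 FPKM with shRNA95, against 0.451 FPKM in controls, or 22.2-fold (interval 11.9 to 41.5; log2 fold change 4.47, error 0.46, q = 0.00216) in the authors' deposited table. With shRNA63 it had only 1.05 FPKM, against 0.465 FPKM in controls, a log2 fold change of 1.18 (error 0.49, q = 0.0156) in the authors' deposited table. Even the higher level was under the 14.8 FPKM of ANXA4 in the same group. The shRNA63 call was lost when p was read from the test statistic on a normal distribution, with an adjusted p of 0.260.

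ANXA6, which organises cholesterol-rich membrane and recruits protein kinase C and RAS regulators, was the main annexin in every group except shRNA95. It had 63.6 FPKM with shRNA95, against 323.1 FPKM in controls, or 19.7% of control (log2 fold change -2.35, error 0.31, q = 0.00216) in the authors' deposited table. With shRNA63 it had 332.2 FPKM, against 333.4 FPKM in controls, a log2 fold change of -0.0054 with an interval of -0.58 to 0.57 in the authors' deposited table. Its share of summed annexin FPKM was 10.1% with shRNA95, against 47.3% in controls, and 42.4% with shRNA63. The sum itself was 631.0 FPKM with shRNA95, against 683.2 FPKM in controls, and 784.1 FPKM with shRNA63, against 705.0 FPKM in controls. Without ANXA6 the sum was 567.4 FPKM with shRNA95, against 360.1 FPKM in controls, and 451.9 FPKM with shRNA63, against 371.5 FPKM in controls.

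**Figure D2:**
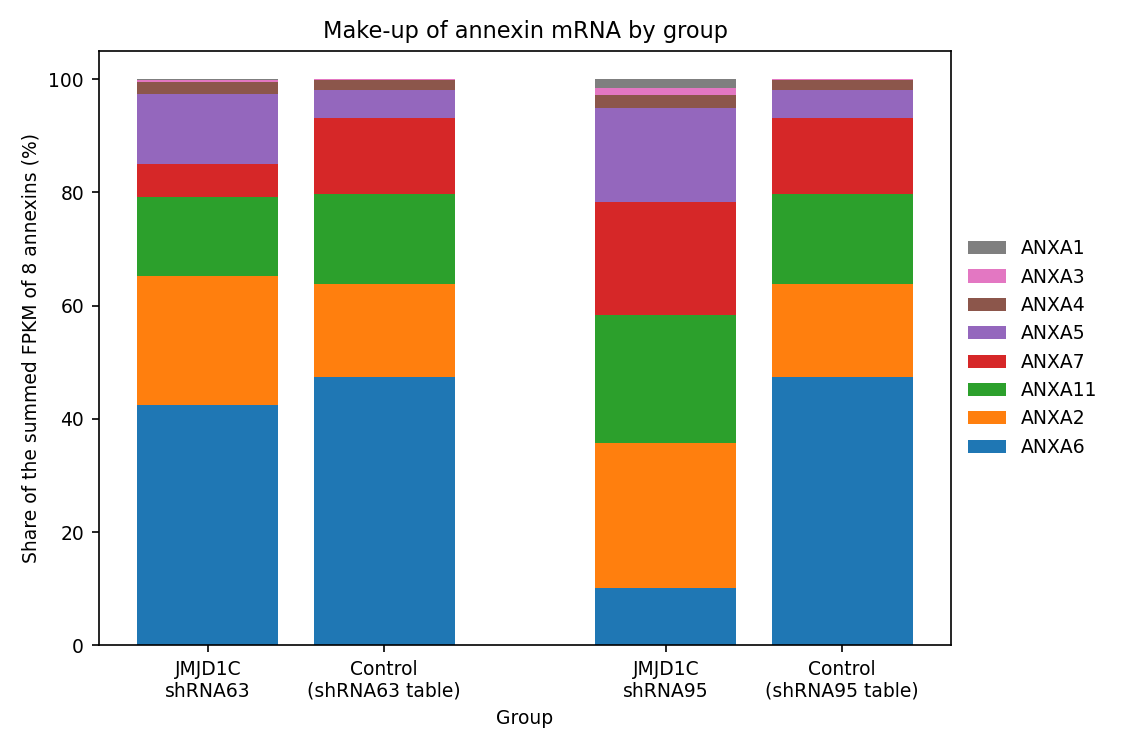
Share of each annexin in the summed FPKM of the 8 genes, in percent, for each JMJD1C shRNA group beside the control group of its table. ANXA6 takes 42.4% with shRNA63 and 10.1% with shRNA95, against 47.3% in the controls of each table, and ANXA5 takes 12.4% and 16.6%, against 5.08% in controls.

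ANXA7, also called synexin, which fuses secretory vesicles in calcium-driven exocytosis, was the reverse case. It had 46.6 FPKM with shRNA63, against 94.6 FPKM in controls, or 49.3% of control (log2 fold change -1.02, error 0.27, q = 0.00214) in the authors' deposited table. With shRNA95 it had 126.3 FPKM, against 91.7 FPKM in controls, a log2 fold change of 0.46 (error 0.27, q = 0.191) that was not called in the authors' deposited table. The ANXA7 locus, 75135202 to 75173834 on chromosome 10 in hg19, also holds RP11-537A6.9. That gene had 6.01 FPKM with shRNA63, against 12.5 FPKM in controls, and 15.2 FPKM with shRNA95, against 12.2 FPKM in controls. The sources used here do not say whether counting used strand, so reads of these overlapping genes cannot be told apart.

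ANXA2 was called with shRNA63, and ANXA4 and ANXA11 with neither hairpin. ANXA2, which works as a complex with S100A10 and binds plasminogen activators at the cell surface, had 178.6 FPKM with shRNA63, against 115.9 FPKM in controls, a log2 fold change of 0.62 (error 0.30, q = 0.0471) in the authors' deposited table. Read from the statistic on a normal distribution, that call was lost too, with an adjusted p of 0.436. With shRNA95 ANXA2 had 162.1 FPKM, against 112.3 FPKM in controls, a log2 fold change of 0.53 (error 0.32, q = 0.189) in the authors' deposited table. The processed pseudogenes ANXA2P1, ANXA2P2 and ANXA2P3 could take reads from it, and none passed 0.147 FPKM in a JMJD1C table.

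ANXA4, an annexin of epithelial and secretory membranes, had 16.7 FPKM with shRNA63, against 11.8 FPKM in controls, and 14.8 FPKM with shRNA95, against 11.4 FPKM in controls, without a call in the authors' deposited tables. Its locus, 69686413 to 70053596 on chromosome 2 in hg19, was merged with 9 other genes, each at or under 1.42 FPKM. ANXA11, which links RNA granules to lysosomes, had 109.4 FPKM with shRNA63, against 112.1 FPKM in controls, and 141.8 FPKM with shRNA95, against 108.6 FPKM in controls. Its log2 fold changes were -0.035 (interval -0.56 to 0.49) and 0.38 (interval -0.15 to 0.92) in the authors' deposited tables, and neither was called.

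**Figure D3:**
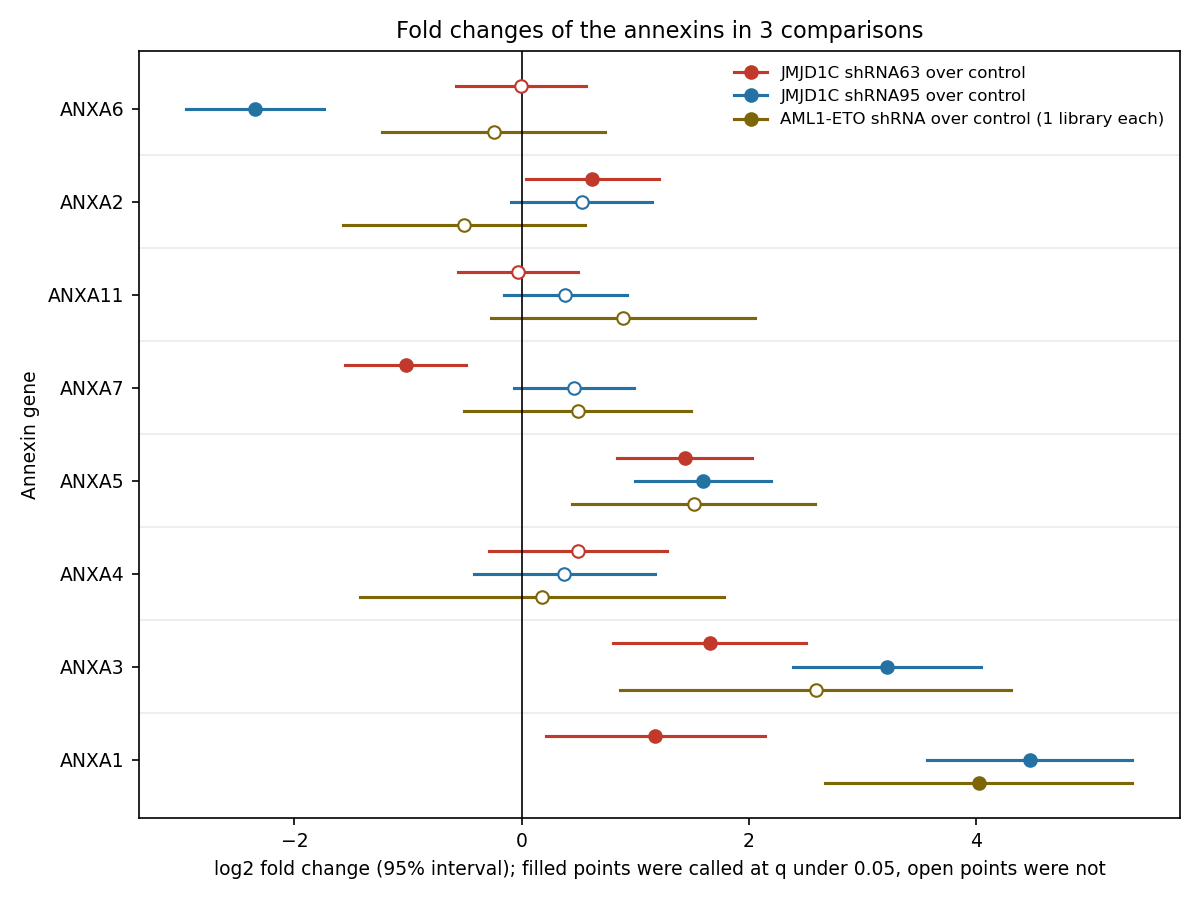
Log2 fold changes of the 8 annexins with 95% intervals for JMJD1C shRNA63, JMJD1C shRNA95 and AML1-ETO shRNA, each over its control; filled points were called at q under 0.05. ANXA5 lies at 1.44, 1.60 and 1.51, ANXA1 at 1.18, 4.47 and 4.02, and ANXA6 at -0.0054, -2.35 and -0.24.

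The hairpins were set against each other gene by gene, taking the shRNA63 log2 fold change minus the shRNA95 one and dividing by the combined error. The test was two-sided on a normal distribution with Benjamini-Hochberg adjustment over 13870 genes. These had an error in both JMJD1C tables and at least 1 FPKM in the higher group of each. ANXA1 and ANXA3 met this through the shRNA groups alone. ANXA1, ANXA6 and ANXA7 passed, 3 of 8 annexins, beside 1.08% of the 13870 genes. ANXA6, 1 of 8, was higher with shRNA63, beside 0.353% of these genes, and ANXA1 and ANXA7, 2 of 8, were lower, beside 0.728%. The difference was 2.34 for ANXA6 (error 0.43), where the normal approximation gave an adjusted p of 2.16e-05 and no exact test was possible. It was -3.30 for ANXA1 (error 0.67) and -1.48 for ANXA7 (error 0.38), with adjusted p of 0.000310 and 0.0136 by the same approximation and not by an exact test. For ANXA2, ANXA4, ANXA5 and ANXA11 the differences lay between -0.42 and 0.12, with intervals reaching from -1.17 to 1.24 in all. Treating the shared controls as independent widens the errors used here. Errors that hold technical spread only would be too narrow, so the net direction is not known.

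**Figure D4:**
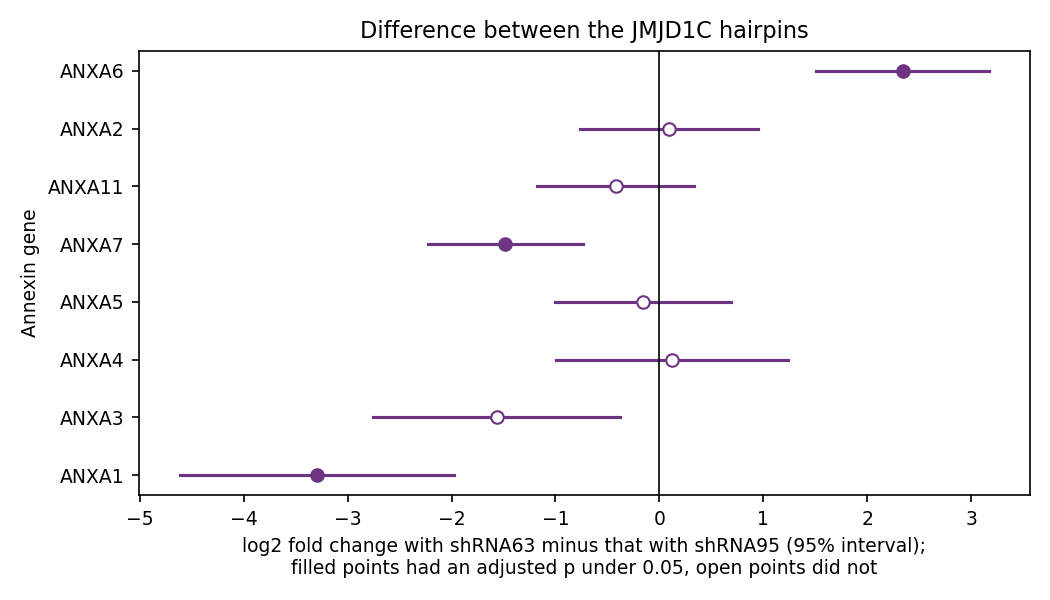
Log2 fold change with JMJD1C shRNA63 minus that with JMJD1C shRNA95 for each annexin, with 95% intervals; filled points had an adjusted p under 0.05. ANXA6 lies at 2.34, ANXA7 at -1.48 and ANXA1 at -3.30, and the intervals of ANXA2, ANXA4, ANXA5 and ANXA11 include 0.

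In the AML1-ETO comparison ANXA1 was the annexin called, 1 of 8, beside 0.411% of 22406 tested genes in either direction and 0.223% called higher. ANXA1 had a log2 fold change of 4.02 (error 0.69, q = 0.0178) in the authors' deposited table, or 16.3-fold with an interval of 6.37 to 41.6. The deposited q = 0.0178 is the smallest in that table, since the authors' p-values stop at 5e-05. ANXA3 and ANXA5 were at 2.59 (error 0.88, q = 0.247) and 1.51 (error 0.55, q = 0.361) in the authors' deposited table, with intervals above 0 and no call. ANXA6 was at -0.24 (error 0.50), ANXA7 at 0.49 (error 0.51), ANXA11 at 0.89 (error 0.59), ANXA4 at 0.18 (error 0.82) and ANXA2 at -0.51 (error 0.54) in the authors' deposited table. Across the 8 annexins the median log2 fold change was 0.69, against -0.014 over all tested genes. Each group was 1 library, so there is no replicate check and the test speaks of those libraries rather than of the conditions.

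Some markers of monocytes were higher where ANXA1, ANXA3 and ANXA5 rose. Of LYZ, CD14, MNDA, CSF1R, FCGR1A and TLR2, 4 of 6 were called higher with each hairpin and none lower in the authors' deposited tables, and 0 of 6 were called in the AML1-ETO comparison. CD14 was not tested in any comparison, so it could not be called. LYZ, MNDA and TLR2 were called with both hairpins and FCGR1A with shRNA95 only. CSF1R was called with shRNA63 only, at 0.593 FPKM against 0.118 FPKM in controls. Over all tested genes 2.29% were called higher with shRNA63, 2.59% with shRNA95 and 0.223% in the AML1-ETO comparison. The summed level of the 6 markers was 82.3 FPKM with shRNA63, against 13.9 FPKM in controls, and 98.9 FPKM with shRNA95, against 13.5 FPKM in controls. LYZ alone had 59.0 FPKM of it with shRNA63 and 70.7 FPKM with shRNA95. CD14, the defining surface marker, was at 0.0186 FPKM with shRNA63, against 0.152 FPKM in controls, and 0.0274 FPKM with shRNA95, against 0.147 FPKM in controls. The part of these genes in the annexin results was not tested, and in bulk RNA more cells of a type and more RNA per cell cannot be told apart.

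The genes with the most similar pattern were ranked by distance over the 3 log2 fold changes, among 9973 genes or fewer with at least 5 FPKM in the higher group of both JMJD1C tables, for the annexins called in at least 2 tables. Nearest to ANXA5 were RGCC, a cell cycle regulator, at a distance of 0.20, HSD17B10, a mitochondrial dehydrogenase, at 0.30 and SH3BGRL3 at 0.31. Nearest to ANXA3 were the chemokine receptor gene CXCR4 at 0.87, CD24P4 at 0.89 and DHRS9 at 1.21. Distances were longer for ANXA1, with LAPTM5, a lysosomal protein of hematopoietic cells, at 1.57, CD24P4 at 2.12 and RP11-872D17.8 at 2.58. ANXA1 and ANXA3 were themselves under 5 FPKM with shRNA63 and in its controls, so genes as low as they were there were not searched. CD24P4 is a copy of CD24 whose reads may be shared, so its place is uncertain. These distances cover 3 comparisons, of which the hairpins share controls.

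Among the other annexin genes, ANXA8, ANXA8L1, ANXA8L2, ANXA9, ANXA10 and ANXA13, none passed 1.94 FPKM. ANXA9, an atypical member, fell to 1.01 FPKM with shRNA95, against 1.88 FPKM in controls (log2 fold change -0.89, error 0.36, q = 0.00572) in the authors' deposited table. ANXA8L2 fell to 0.310 FPKM with shRNA95, against 0.918 FPKM in controls (log2 fold change -1.56, error 0.47, q = 0.00216) in the authors' deposited table, but ANXA8 and its near-identical copies can share reads and are uncertain. Only ANXA8L1, ANXA8L2 and ANXA9, 3 of the 6, were tested in each comparison, so the others could not be called. With shRNA95 2 of these 3 were called lower, beside 1.82% of all tested genes. None was called with shRNA63 or in the AML1-ETO comparison, beside 5.12% and 0.411% of all tested genes.

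S100 proteins are small calcium-binding proteins that bind annexin tails, and S100A4, S100A6, S100A10 and S100A11 rose with shRNA95. Of 8 annexin-binding partners, 7 were tested, and 4 were called higher with shRNA95, against 1 higher and 1 lower with shRNA63 and none in the AML1-ETO comparison, in the authors' deposited tables. Over all tested genes 2.59% were called higher with shRNA95, and 2.29% higher and 2.83% lower with shRNA63. S100A11, the partner of annexin A1, rose to 355.1 FPKM with shRNA95, against 201.9 FPKM in controls (log2 fold change 0.81, error 0.25, q = 0.00216) in the authors' deposited table. S100A10, the partner of annexin A2, rose to 9.17 FPKM with shRNA95, against 5.13 FPKM in controls (log2 fold change 0.84, error 0.37, q = 0.0403) in the authors' deposited table. ANXA2 thus had 162.1 FPKM beside 9.17 FPKM of S100A10 in the shRNA95 group, and 112.3 beside 5.13 FPKM in its controls. S100A4 had 90.2 FPKM with shRNA95, against 44.9 FPKM in controls (log2 fold change 1.01), and S100A6, a partner of annexin A11 at no more than 2.18 FPKM, rose with both hairpins in the authors' deposited tables. The difference between hairpins was -1.17 for S100A4, with an interval of -1.91 to -0.43 and an adjusted p of 0.122, which does not show that the hairpins act alike on it.

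SRI encodes sorcin, a calcium-binding partner of annexin A7, and it fell with the same hairpin as ANXA7. It had 72.5 FPKM with shRNA63, against 137.6 FPKM in controls (log2 fold change -0.92, error 0.19, q = 0.00214) in the authors' deposited table. With shRNA95 its log2 fold change was 0.12 in the authors' deposited table, without a call. The difference between hairpins was -1.04 (error 0.36) with an adjusted p of 0.189, so it did not pass.

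The annexin A1 receptor genes were led by FPR2, which moved opposite to ANXA1. FPR2 fell to 3.71 FPKM with shRNA63, against 7.36 FPKM in controls (log2 fold change -0.99, error 0.28, q = 0.00554) in the authors' deposited table. It fell to 1.71 FPKM with shRNA95, against 7.14 FPKM in controls (log2 fold change -2.06, error 0.29, q = 0.00216) in the authors' deposited table. Its log2 fold change with AML1-ETO shRNA was -3.33 (error 0.65, q = 0.0882) in the authors' deposited table, without a call. The difference between hairpins, 1.07 (error 0.40), had an adjusted p of 0.327. FPR1 and FPR3 were at or under 0.0889 FPKM in every JMJD1C group.

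Pathway genes around the annexins were mostly not called. Of 7 plasminogen activation genes, 5 were tested with shRNA63, 5 with shRNA95 and 6 in the AML1-ETO comparison, and none was called. All 4 protein kinase C and RAS partners of annexin A6 were tested each time, and none was called. Over all tested genes 5.12%, 4.40% and 0.411% were called in these comparisons. At an unadjusted Cuffdiff p under 0.05 the plasminogen list had 3 genes with shRNA63, 1 with shRNA95 and 0 in the AML1-ETO comparison. The annexin A6 list had 1, 0 and 0, in the authors' deposited tables. The share of all genes under that p was not taken, so these counts have nothing to be set against. A q over 0.05 does not show that the genes of these lists stayed the same. Of 12 membrane repair genes, 10 were tested with shRNA63, 11 with shRNA95 and 11 in the AML1-ETO comparison. PTRF, which encodes cavin-1 of caveolae, was the 1 gene called lower each time. Its log2 fold changes were -0.80, -0.91 and -4.58 in the authors' deposited tables. Over all tested genes 2.83%, 1.82% and 0.187% were called lower. MYOF, a ferlin, was the 1 gene called higher with shRNA95, beside 2.59% of all tested genes, and was not tested with shRNA63. It had 0.611 FPKM with shRNA95, against 0.119 FPKM in controls, with a wide error (log2 fold change 2.36, error 1.30). Of 9 genes of phosphatidylserine transport and exposure, the flippase gene ATP11B rose with both hairpins in the authors' deposited tables (log2 fold changes 1.36 and 1.25). Over all tested genes 2.29% were called higher with shRNA63 and 2.59% with shRNA95.

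Of 9 genes of phospholipase A2 and eicosanoid synthesis, the target pathway of annexin A1, 4 were tested in each JMJD1C table. With shRNA95 2 were called higher, beside 2.59% of all tested genes, and with shRNA63 1 was called lower, beside 2.83%. ALOX5, which encodes 5-lipoxygenase, rose to 3.34 FPKM with shRNA95, against 0.900 FPKM in controls, and its activating protein gene ALOX5AP rose to 5.96 FPKM, against 3.21 FPKM in controls, in the authors' deposited table. LTA4H, the hydrolase that makes leukotriene B4, fell to 37.7 FPKM with shRNA63, against 68.7 FPKM in controls (log2 fold change -0.87, error 0.25) in the authors' deposited table.

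**Figure D5:**
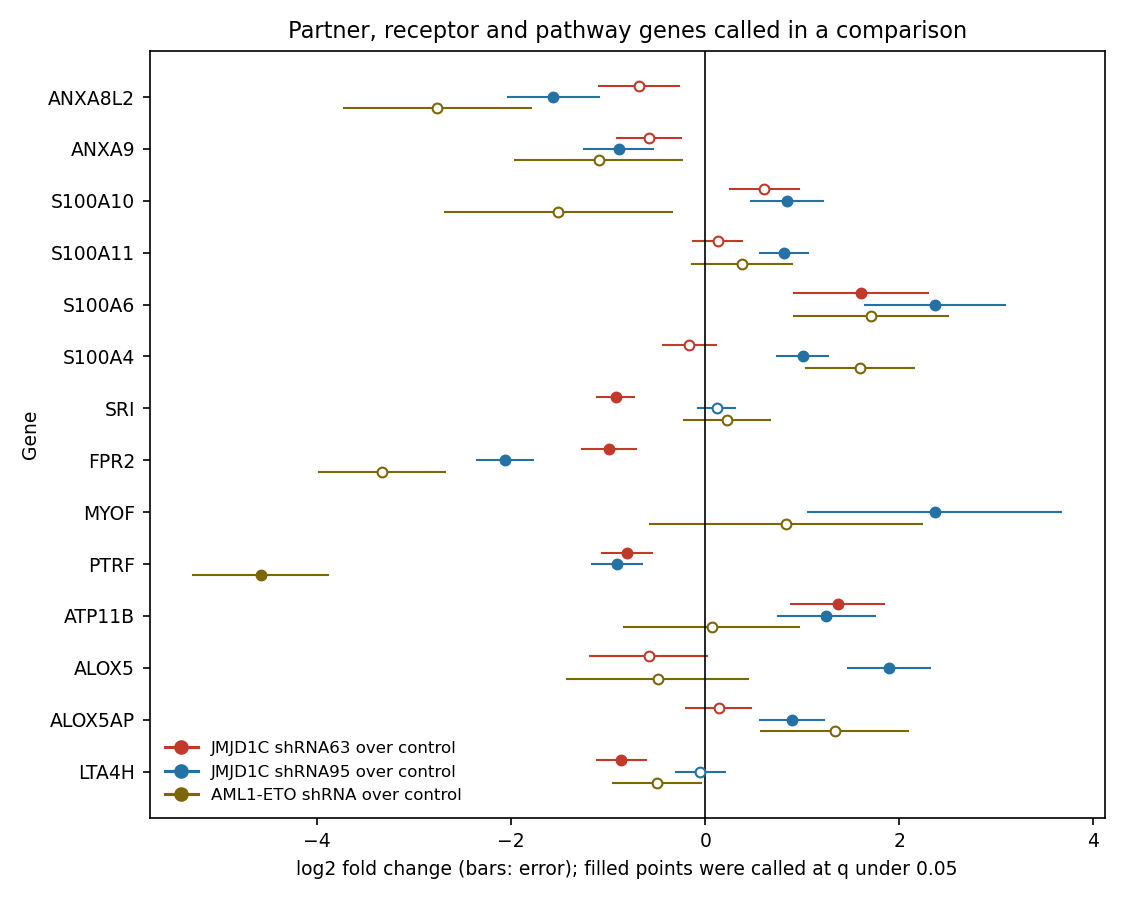
Log2 fold changes, with bars of 1 error, for genes of the related lists that were called in a comparison and are named in the text; filled points were called at q under 0.05, and a comparison in which a gene was not tested has no point. FPR2 and PTRF lie below 0 in all comparisons, S100A6 lies above 0, and SRI lies below 0 with shRNA63, at -0.92, and near 0 elsewhere.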

How the data were processed

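The submitters' processing notes name TopHat2 2.0.8b, Cuffdiff 2.1.1 and the build hg19, with no role or order. Per the file headers, each table is a Cuffdiff-style gene comparison holding, as deposited by the authors, FPKM per group, a log2 fold change, a p-value, a q-value and a score, their test statistic. The authors combined the 2 libraries of each JMJD1C group, so no test across libraries could be made, and the depth per library is unknown. Nothing states that these libraries came from separate cultures, so p-values may measure technical spread only. The FPKM in the AML1-ETO table belong to 2 sample columns of another series and were not used.

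Calls are the authors' (q under 0.05). Errors follow from their statistic. In the JMJD1C tables the deposited p is smaller than a normal distribution gives: its normal deviate was 1.42 times the statistic at the median, against 1.04 times in the AML1-ETO table. For the difference between hairpins, no error was allowed under the 10th percentile of all. The test was also run on simulated data drawn with these same errors, which cannot check whether the errors are right. Small simulated differences were mostly missed, so a gene that did not pass may still differ. The gene members and the lists of related genes were chosen with earlier results of these data known. All 8 annexins are named, as is every list gene called in any table except for an item that is not reported here, and each called annexin's nearest 3 genes. Alternatives covered the q threshold, the p-value behind a call, the pseudocount (1 FPKM), the filter on FPKM, centring and the errors. Python 3.11.15, pandas 2.3.3 and scipy 1.17.1 were used.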

Additional observations from a re-analysis of the deposited data

Results flagged for a closer look

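The effects of the JMJD1C hairpins differed from each other, by the test of the difference itself, for 3 annexins. The log2 fold change with shRNA63 minus that with shRNA95 was -3.30 for ANXA1, 2.34 for ANXA6 and -1.48 for ANXA7. Adjusted p-values over 13870 genes were 0.000310, 2.16e-05 and 0.0136 in that order, from a normal approximation, since an exact test needs values of single libraries. Each rests on group values of 2 libraries per group, and JMJD1C was called lower with shRNA63 and not called with shRNA95 (difference -0.92, adjusted p = 0.691, not from an exact test).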

How the results depend on the processing

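No paired analysis was possible because values of single libraries were not in the tables used, and leaving out each replicate was not run for the same reason. Annexins called with shRNA63 went down to 3, against 5, at q under 0.01 and likewise at 3 with a normal p of the test statistic, where ANXA1 and ANXA2 were lost in each case. At q under 0.01 all genes called were 559, against 936, with shRNA63 and 508, against 793, with shRNA95. In the AML1-ETO comparison q under 0.01 left 0 annexins and 0 genes, since the smallest q is 0.0178, and the normal p gave 400 genes, against 92, with ANXA1 again the 1 annexin. The shRNA95 count stayed at 4 under every alternative run. Annexins that differ between hairpins numbered 4, against 3, with errors scaled to the deposited p. They also numbered 4 when a fixed share of each squared error, assumed to be the controls' and equal for all genes, was taken out. ANXA3 was added in each case (adjusted p = 0.00952 and 0.00978, by the normal approximation, not an exact test). Over all genes tested for the difference these gave 591 and 587, against 150. The median log2 ratio lay between 0.23 and 0.56 with shRNA63 and between 0.46 and 0.49 with shRNA95 over the pseudocounts, filters and centring. With shRNA95 the filter of 5 FPKM left out no annexin, since ANXA1 and ANXA3 passed it through the shRNA95 group alone. That filter therefore could not test the shRNA95 median. Centring on the median of all tested genes, added after seeing the data, turned no called annexin. ANXA1 and ANXA3 are near 1 FPKM or under it in controls, where depth limits precision most.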
